A study of Mus musculus with 2 samples.

Results

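Beta cells with low insulin RNA were picked out of dispersed mouse islets as cells whose Ins1 and Ins2 transcripts made up at least 1% and less than 3% of their own UMIs (unique molecular identifiers, each standing for 1 captured RNA molecule). The members were chosen by this insulin share among cells that also had at least 500 detected genes, at most 15% mitochondrial UMIs, at least 5000 UMIs and more than 4 times as many insulin UMIs as UMIs of Gcg, Sst, Ppy and Pyy together. They numbered 494 of 2914 gated cells in the control library and 477 of 4465 in the knockout-labelled one, or 971 of the 17801 barcodes in the study. Throughout, they are set against cells of the same library and gates with an insulin share of 3 to 20%, called comparison cells, of which there were 1416 and 2255. Because the insulin share sorts the cells, every contrast between the classes is a description of cells sorted by that share.

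The study holds 2 single-cell libraries of islets from female C57BL/6 mice aged 12 weeks. The control was homozygous for a floxed Spop allele (Spop fl/fl), and the other library is labelled SpopβKO, a deletion of Spop restricted to beta cells. SPOP brings substrates to a ubiquitin ligase built on CUL3. The Cre driver, the deleted exons, whether the control mice carried Cre and how many mice were pooled are not given in the sources used here. Both sets of islets went through a recovery culture in RPMI with glucose after isolation, trypsin dispersal, removal of dead cells and debris, and capture with 10x Genomics 3′ chemistry. A 3′ tag need not lie in the deleted part of the gene, so Spop UMIs do not check the genotype. Members had 90.9 Spop CPM (control) and 97.3 (knockout-labelled), where CPM here always means UMIs per 1000000 UMIs with Ins1 and Ins2 left out of the total.

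A mature beta cell spends a large part of its transcription on insulin, which is stored with islet amyloid polypeptide (Iapp) and granins in dense-core granules and released when glucose is taken up and metabolised. Transcription factors such as PDX1, NKX6-1, NEUROD1 and MAFA bind the insulin promoters and those of other beta cell genes. Beta cells are known to differ in how much insulin RNA they hold, and high secretory load engages the unfolded protein response, whose PERK arm acts through ATF4 and CHOP.

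Ins1 shows what kind of sequence these factors read, so the bases just upstream of 3 genes with different behaviour in the members are shown: Ins1, which helped to choose them, Iapp, and Slc2a2, the glucose transporter. They are 250 bases before each RefSeq start (GRCm38.p6, plus strand), at chr19:52264047-52264296, chr6:142298175-142298424 and chr3:28697653-28697902. Capitals mark the E box GCCATCTG and the homeodomain core TAAT on either strand (TAAT reads ATTA on the other strand).
Ins1: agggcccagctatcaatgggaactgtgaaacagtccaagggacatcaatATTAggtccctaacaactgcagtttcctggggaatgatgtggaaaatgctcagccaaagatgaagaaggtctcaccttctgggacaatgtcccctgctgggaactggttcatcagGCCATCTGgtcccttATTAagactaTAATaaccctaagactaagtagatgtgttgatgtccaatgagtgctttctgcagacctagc
Iapp: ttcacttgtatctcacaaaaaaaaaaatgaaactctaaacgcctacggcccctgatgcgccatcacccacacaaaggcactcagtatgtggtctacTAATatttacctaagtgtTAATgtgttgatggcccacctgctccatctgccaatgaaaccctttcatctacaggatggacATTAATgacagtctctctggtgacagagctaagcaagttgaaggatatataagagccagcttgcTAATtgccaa
Slc2a2: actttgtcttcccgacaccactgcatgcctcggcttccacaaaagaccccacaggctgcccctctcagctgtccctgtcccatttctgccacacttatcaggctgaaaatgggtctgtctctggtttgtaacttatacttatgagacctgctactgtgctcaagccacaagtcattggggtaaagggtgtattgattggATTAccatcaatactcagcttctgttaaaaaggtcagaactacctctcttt
The E box letters occurred once in the Ins1 window, starting 86 bases before the RefSeq start, and in 1.11% of 32851 promoter windows (364). The TAAT letters occurred 3 times upstream of Ins1, 5 times upstream of Iapp (1 pair overlapping on opposite strands) and once upstream of Slc2a2, and in 54.9% of all windows. These are matches of letters, not measured binding sites.

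Low-insulin cells were a smaller share of gated cells in the knockout-labelled library. They made up 17.0% of gated control cells (exact 95% binomial interval 15.6 to 18.4%) and 10.7% of gated knockout-labelled cells (9.79 to 11.6%). Cells above 20% insulin went the other way, at 24.9% and 34.2% of gated cells. Cells under 1% made up 9.54% and 4.66% of gated cells. The gate took in 2914 of 5196 control cells past the quality filters and 4465 of 5843 in the other library. Of all cells past these filters, low-insulin cells made up 9.51% (8.72 to 10.3%) and 8.16% (7.47 to 8.90%), with intervals that overlap. All intervals here cover counting error only. With 1 library per genotype there is no replicate, so no test was possible and a difference between the libraries cannot be told apart from one between genotypes.

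**Figure D1:**
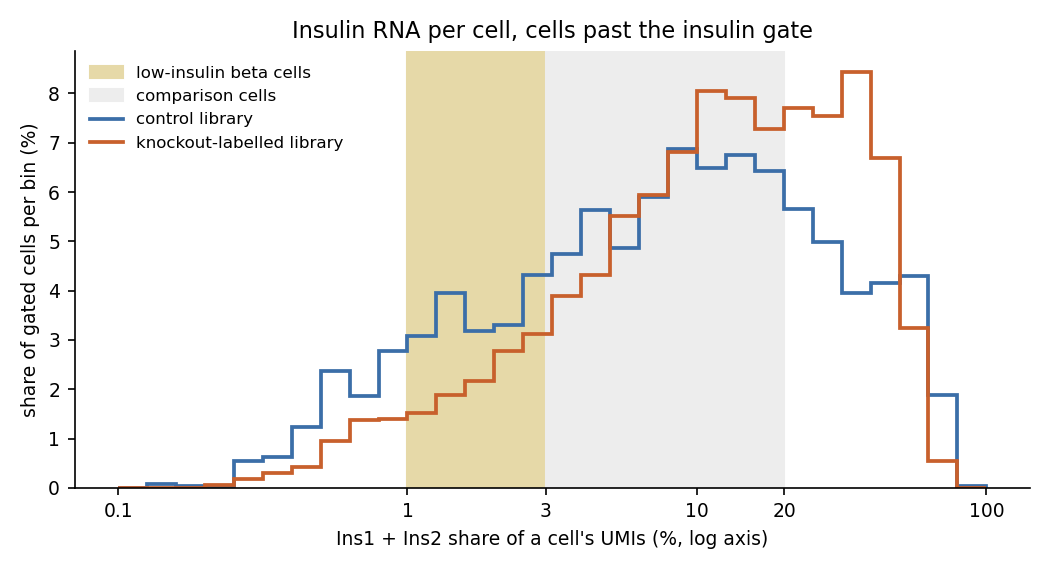
Share of gated cells (y axis, %) by the insulin share of a cell's UMIs (x axis, %, log scale) in the control library (blue) and the knockout-labelled library (orange). Both distributions run without a gap through the shaded 1 to 3% band, so the members are a range of a continuous distribution. The control curve lies higher within it (494 of 2914 cells against 477 of 4465).

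Cells just inside and just outside the range differed by amounts that varied with the gene and the edge. In the control library the 89 members at 1 to 1.25% had 15215 Iapp CPM and 122 Mafa CPM, and the 102 cells just outside, at 0.75 to 1%, had 14576 and 108. At the upper edge, 101 members at 2.5 to 3% had 156 Mafa CPM, 31.0 Slc2a2 CPM and 13989 Iapp CPM, and 76 cells at 3 to 3.5% had 272, 68.2 and 17526. All 3 genes were thus higher just outside this edge. In the knockout-labelled library the corresponding Mafa values were 63.5 and 50.3 CPM at the lower edge and 93.2 and 106 at the upper one. At that upper edge Slc2a2 stood at 71.7 and 40.0 CPM and Iapp at 18623 and 16163 CPM, both lower just outside it.

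Members were not shallow cells in the control library. They had a median of 13644.5 UMIs and 4260.5 genes there, against 12628.5 and 3915 in comparison cells. In the knockout-labelled library the members were shallower, with 9690 UMIs and 3615 genes against 12629 and 3926. Thinned to 4000 insulin-free UMIs each, members of both libraries showed 2028 and 2037 genes and comparison cells 2001.5 and 2014. The median mitochondrial share was 1.77% in control members and 1.55% in knockout-labelled members, against 1.08% and 1.75% in comparison cells. Members held a median of 253.5 and 182 insulin UMIs. Ins1 gave 5.51% of the insulin UMIs of control members and 13.4% of those of knockout-labelled members, against 6.80% and 16.0% in comparison cells and 12.9% and 30.8% in cells above 20% insulin.

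Insulin UMIs were also present in cells of other types, and more of them in the knockout-labelled library. Cells gated as alpha cells, with Gcg at 1% or more of their UMIs and above 4 times insulin, held a median insulin share of 0.25% in the control library and 0.817% in the other. Of these alpha-gated cells, 27 of 1442 control cells and 182 of 641 knockout-labelled cells had at least 1% insulin. Cells with macrophage markers had medians of 0.121% (10 cells) and 0.571% (23 cells). The lower edge of the member range therefore lay near the level of alpha-gated cells in the knockout-labelled library, and above their 90th percentile (0.465%) in the control library. When the members were narrowed to 2 to below 3% insulin, their shares were 6.66% of gated control cells and 5.06% of gated knockout-labelled cells. At 1 to below 2% the shares were 10.3% and 5.62%.

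The label of beta cells was checked with genes that the gate did not use. After thinning to 4000 insulin-free UMIs, Nkx6-1, a beta cell homeodomain factor, had a UMI in 53.8% of control and 49.7% of knockout-labelled members, against 12.1% and 11.4% of alpha-gated cells (84.2% and 73.2% against 26.7% and 25.6% unthinned). Pdx1, the master regulator of pancreas and beta cells, had a UMI in 18.2% and 22.4% of members and in 2.98% and 3.90% of alpha-gated cells. Slc2a2 stood at 10.7% and 15.5% in members and at 1.04% and 1.72% in alpha-gated cells. Iapp had a UMI in all members, but also in 87.9% and 98.0% of alpha-gated cells, so its presence in a cell does not mark a beta cell here. Without thinning, alpha-gated cells had medians of 8628.5 and 7477 UMIs. All 8 genes of the beta marker list were detected in members, with summed levels of 15669 CPM (control) and 17022 CPM (knockout-labelled). Comparison cells summed to 15571 and 24047 CPM. These sums were mostly Iapp. The 7 other genes, Nkx6-1, Pdx1, Slc2a2, Mafa, Ucn3, G6pc2 and Slc30a8, summed to 768 CPM (749 to 787) in control members and 801 (789 to 813) in control comparison cells. They summed to 720 CPM (698 to 743) in knockout-labelled members and 1074 (1062 to 1086) in knockout-labelled comparison cells.

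Markers of other endocrine cells were present in members at sums below those of comparison cells. The 7 alpha cell markers summed to 1115 CPM in control and 660 CPM in knockout-labelled members, against 2938 and 2144 CPM in comparison cells. Most of this was Gcg, which the gate limits. The 4 pancreatic polypeptide cell markers, including the gated Ppy and Pyy, summed to 294 and 509 CPM against 634 and 1375 CPM. The 5 delta cell markers, including the gated Sst, summed to 77.4 and 164 CPM against 187 and 248 CPM. Markers of non-endocrine cells were concentrated in a few knockout-labelled members. None of 494 control members (0 cells, which allows a share of up to 0.607%) and 10 of 477 knockout-labelled members carried at least 0.5% of their insulin-free UMIs in the markers of 1 of 7 cell types (acinar, mesenchymal, endothelial, macrophage, lymphocyte, glial and erythrocyte). These were 5 cells with macrophage, 3 with mesenchymal and 2 with endothelial markers. Ductal markers were not in this limit, and 2 control members and 1 knockout-labelled member had at least 0.5% of them. Over all members, the 9 macrophage markers summed to 13.3 CPM in control and 231 CPM in knockout-labelled members, against 14.4 and 88.9 CPM in comparison cells. The 10 mesenchymal markers summed to 0.623 and 74.3 CPM against 17.1 and 11.1 CPM, and Col1a1, Col3a1, Dcn, Lum, Pdgfra, Pdgfrb and Acta2 had no UMI in control members. The 7 ductal markers summed to 365 and 406 CPM against 278 and 473 CPM. The 5 erythrocyte markers had no UMI in members of either library. Doublets were not called, and cells holding 2 types remain among the members.

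**Figure D2:**
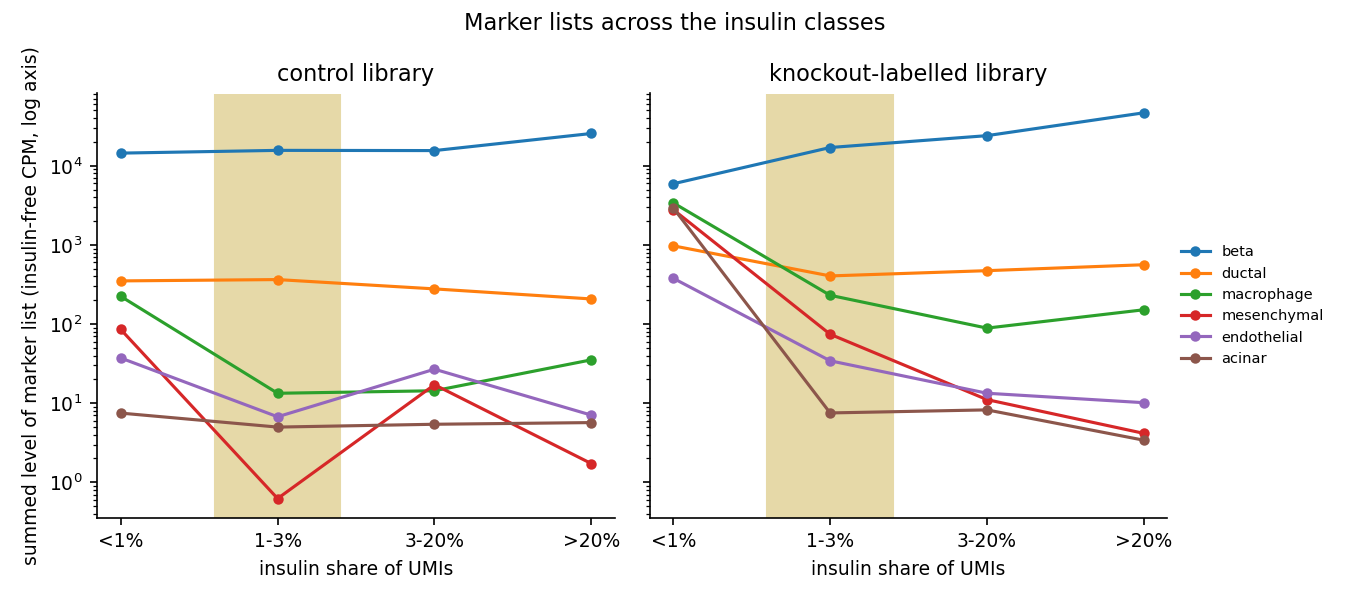
Summed level of 6 marker lists (y axis, insulin-free CPM, log scale) in the 4 insulin classes of the control library (left) and the knockout-labelled library (right), with the members shaded. Of the 6 lists drawn, the beta markers have the highest sum in members of both libraries (15669 and 17022 CPM), nearly all of it Iapp. Macrophage, mesenchymal, endothelial and acinar markers are high in the knockout-labelled cells under 1% insulin, where 58 of 208 cells are over the 0.5% limit.

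Outside insulin itself, few genes separated members from comparison cells in both libraries. Of 8512 genes with a mean of at least 10 CPM over both classes in each library, 13 (0.153%) were higher in members and 24 (0.282%) lower in both, by at least 1.5-fold with an exact 95% interval that left out no difference. In the control library alone 153 genes (1.8%) were higher and 200 (2.35%) lower, and in the knockout-labelled library 50 (0.587%) and 74 (0.869%). The 13 higher genes were 1700066M21Rik, Pard3b, Fabp5, Nrip2, Rassf10, Ciapin1, Aldh1l2, Avil, Nedd9, Kdm1b, Prdm15, Tmx3 and L1cam. The lower genes included the granule proteins Chga and Resp18, the selenoproteins Gpx3 and Selenop, and the stress-inducible Gadd45b, Gadd45g and Maff. The median log2 ratio over all genes tested was 0.03 in the control library and 0.02 in the other. A scaling total with insulin in it would shift all log2 ratios up by 0.115 and 0.125.

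**Figure D3:**
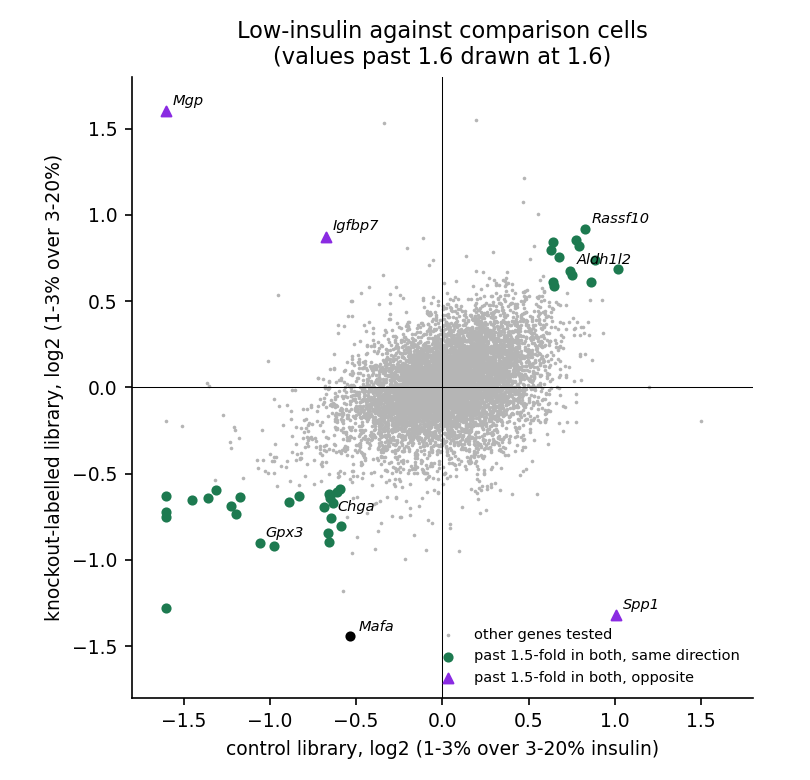
Log2 ratio of members over comparison cells for 8512 genes in the control library (x axis) and the knockout-labelled library (y axis). The 13 genes at the upper right and the 24 at the lower left (green) passed 1.5-fold in both libraries, and Mgp, Igfbp7 and Spp1 (purple triangles) passed it in opposite directions.

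Several genes of the secretory granule were lower in members of both libraries, and Chga and Resp18 by at least 1.5-fold in both. Chga, chromogranin A, a granin that helps to form dense-core granules (chr12:102554969-102565028, plus strand, mm10), had 1210 CPM in control members and 1894 in control comparison cells. In the knockout-labelled library it had 2865 and 4834 CPM. The log2 ratios were −0.65 (−0.68 to −0.61) and −0.75 (−0.78 to −0.73). Pcsk1n, the proSAAS inhibitor of prohormone convertase, was lower by log2 ratios of −0.96 and −0.57. Scg5, the chaperone 7B2 of the convertase PCSK2, stood at 453 against 685 CPM and at 467 against 666 CPM. Scg3, a granin receptor of the granule membrane, stood at 538 against 770 CPM and at 535 against 763 CPM, and did not pass 1.5-fold in either. Other granule genes stood higher in control members, among them the calcium-binding secretagogin Scgn at 213 against 140 CPM (log2 ratio 0.60), with 215 against 221 CPM in the knockout-labelled library. Of 22 granule cargo and processing genes tested, 12 were lower in members of both libraries, 9 of them with intervals that left out no difference, and 1 was higher in both. In the control library 10 of the 22 were above 0, 8 of them with intervals that left out no difference, and in the other library 1 was. Over all genes, 27.2% were lower and 35.9% higher in both. The list's median was −0.03 in the control library and −0.35 in the other. Chgb, the related chromogranin B, stood at 588 against 698 CPM in the control library and at 1858 against 3125 CPM in the knockout-labelled one.

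Iapp, which is secreted together with insulin, had nearly level sums in members and comparison cells of the control library. Its level was 14902 CPM in control members and 14770 CPM in control comparison cells, a log2 ratio of 0.01. In the knockout-labelled library the levels were 16301 and 22973 CPM, a ratio of −0.49 (−0.51 to −0.48). Cells above 20% insulin had more Iapp in both libraries, at 24190 and 43955 CPM, and members over these cells gave log2 ratios of −0.70 and −1.43. Among members, cells differed widely in Iapp: the 10th, 50th and 90th percentiles were 1994, 10015 and 30076 CPM in the control library and 1871, 9049 and 34170 CPM in the other. The spread between the outer percentiles was 15.1-fold and 18.3-fold, against 8.91-fold and 8.83-fold for Chga. Comparison cells also differed widely, by 11.5-fold and 16.6-fold for Iapp and 10.2-fold and 6.85-fold for Chga. Their median Iapp level per cell was 7889 CPM in the control library and 12928 CPM in the other. Free RNA adds to the value of each cell by an amount that was not measured.

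Among the transcription factors of beta cells, most stood above comparison cells in control members and most below in knockout-labelled members. Of 18 factors tested, 15 had a positive and 3 a negative log2 ratio in the control library (median 0.25), and 6 and 12 in the other (median −0.08). Over all genes, 54.7% and 54.0% had a positive ratio. Nkx6-1 stood at 237 against 178 CPM in control members and comparison cells and at 218 against 233 CPM in the knockout-labelled library. Pdx1 stood at 73.9 against 64.5 CPM and at 76.4 against 93.0 CPM. Insm1, a zinc finger factor of endocrine differentiation, was higher in members of both libraries, with log2 ratios of 0.43 and 0.36. Rfx6, which maintains beta cell genes, followed with 0.56 and 0.25. Mafa, the factor of mature beta cells that activates insulin transcription, went the other way. It stood at 139 against 202 CPM in the control library and at 78.7 against 213 CPM in the other, log2 ratios of −0.53 (−0.63 to −0.44) and −1.44 (−1.58 to −1.30). The latter was the lowest ratio of all 8512 genes in the knockout-labelled library. After thinning, a Mafa UMI was found in 24.1% of control members and 25.4% of control comparison cells. In the other library it was found in 23.1% and 31.9%. Mlxipl, the glucose-responsive factor ChREBP, gave −0.39 and −0.67.

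Of 22 glucose-sensing and exocytosis genes, 13 were above and 9 below comparison cells in control members, and 4 were above and 18 below in knockout-labelled members. Slc2a2 stood at 36.8 against 51.7 CPM in the control library and at 45.3 against 82.6 CPM in the other. G6pc2, the islet glucose-6-phosphatase, had log2 ratios of −0.39 and −0.94. Trpm5, a calcium-activated cation channel, had −0.58 and −1.18, and Ffar1, the fatty acid receptor GPR40, had −0.36 and −0.79. Kcnj11, the pore of the ATP-sensitive potassium channel, stood at 53.3 against 39.6 CPM in the control library, a ratio of 0.43, and at 45.2 against 46.3 CPM in the other. The median over the 22 genes was 0.05 in the control library and −0.28 in the other. Of the 22, 5 were lower by at least 1.5-fold in the knockout-labelled library, where 0.869% of all genes were, and 0 in the control library, where 2.35% of all genes were. Whether the libraries differ in these ratios was not tested, since each has no replicate.

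Most targets of ATF4 and CHOP were modestly higher in members of both libraries. Of 35 tested, 26 were higher and 2 lower in both, with 22 of the 26 having intervals that left out no difference in either. In the control library 9 of the 35 were below 0, 7 of them with intervals below no difference, as had 22.7% of all genes there. In the other library 2 were below 0, and 0 had such an interval. Over all genes, 35.9% were higher and 27.2% lower in both, and 9.65% had intervals above no difference in both. The medians were 0.23 and 0.27, against 0.03 and 0.02 over all genes. Aldh1l2, a mitochondrial folate enzyme (chr10:83487450-83534140, minus strand), was the 1 gene of the list past 1.5-fold in both. It stood at 211 against 126 CPM in the control library and at 145 against 90.9 CPM in the other, log2 ratios of 0.74 (0.65 to 0.83) and 0.68 (0.56 to 0.79). Trib3, a pseudokinase that feeds back on ATF4, stood at 209 against 162 CPM and at 175 against 115 CPM. Psat1 and Gpt2, which act in serine synthesis and alanine metabolism, had ratios of 0.61 and 0.58 in the control library and 0.42 and 0.53 in the other. Ddit3, which encodes CHOP itself, had −0.12 and 0.17. Atf4 stood at 523 CPM in members and comparison cells of the control library and at 404 against 352 CPM in the other. Lists of the other arms of the unfolded protein response had medians near 0. ER chaperones and ATF6 targets had medians of −0.01 and 0.01 over 24 genes, and XBP1 targets and ER translocation genes had −0.04 and −0.06 over 31. Hspa5, the main ER chaperone BiP, stood at 2255 against 2236 CPM in the control library and at 2139 against 1666 CPM in the other. Selenok, an ER selenoprotein, was lower in both, with −0.70 and −0.44.

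Several other genes were higher in members of both libraries. Rassf10, a RAS association domain protein (chr7:112953962-112957457, plus strand), stood at 80.5 against 45.3 CPM in the control library and at 44.1 against 23.3 CPM in the other, log2 ratios of 0.83 and 0.92. After thinning, 24.3% and 11.9% of members and 13.0% and 7.85% of comparison cells had a Rassf10 UMI. Pard3b, a cell polarity protein, had ratios of 0.88 and 0.74. Ciapin1, which acts in cytosolic iron-sulfur cluster assembly, had 0.63 and 0.80. Igf1r, the receptor of insulin-like growth factor 1, stood at 692 against 460 CPM and at 489 against 344 CPM. Mt2, a metallothionein, stood at 2602 against 1879 CPM and at 1428 against 973 CPM. Ribosomal protein genes were nearly level, with medians of 0.06 and 0.04 over 39 genes. Rpl12, which that list did not hold, had 0.46 and 0.42.

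Ttr, Rbp4 and Gpx3 were among the genes lowest in members, at log2 ratios of −0.97, −1.32 and −1.06 in the control library and −0.92, −0.58 and −0.90 in the other. Ttr and Rbp4 are abundant in alpha and delta cells, and the gate lets in fewer UMIs of other hormones as insulin falls. The 90th percentile of the other-hormone share was 0.186% of UMIs in control members and 0.324% in control comparison cells, and 0.205% and 0.586% in the other library. With both classes held to under 0.25% of UMIs from these hormones, a limit chosen after seeing the data, the ratios were −0.19, −0.29 and −0.19 in the control library and −0.19, 0.03 and −0.82 in the other. Of the 24 lower genes, 18 were still past 1.5-fold in both under this limit, and Gadd45b, Gpx3, Resp18, Stmn3, Tomm34 and Ttr were not. Chga kept ratios of −0.67 and −0.77 under it.

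The difference from comparison cells was part of a gradient over all gated cells. Chga went from 1199 CPM in control cells at 1 to 2% insulin to 2314 CPM at 10 to 20% and 9437 CPM above 40%, and from 2529 to 5502 and 12100 CPM in the knockout-labelled library. Aldh1l2 went from 228 CPM at 1 to 2% to 34.2 CPM above 40%, and from 155 to 37.3 CPM. Mafa lay between 122 and 224 CPM in the control bins from 1 to 20% and reached 725 CPM above 40%. In the knockout-labelled library it went from 68.4 to 290 and 1091 CPM. Insulin-free depth differed along this gradient, with medians of 13427 and 9503 UMIs in members, 11565.5 and 11482 in comparison cells and 5870 and 8048 in cells above 20% insulin. Its part in these values was not tested.

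**Figure D4:**
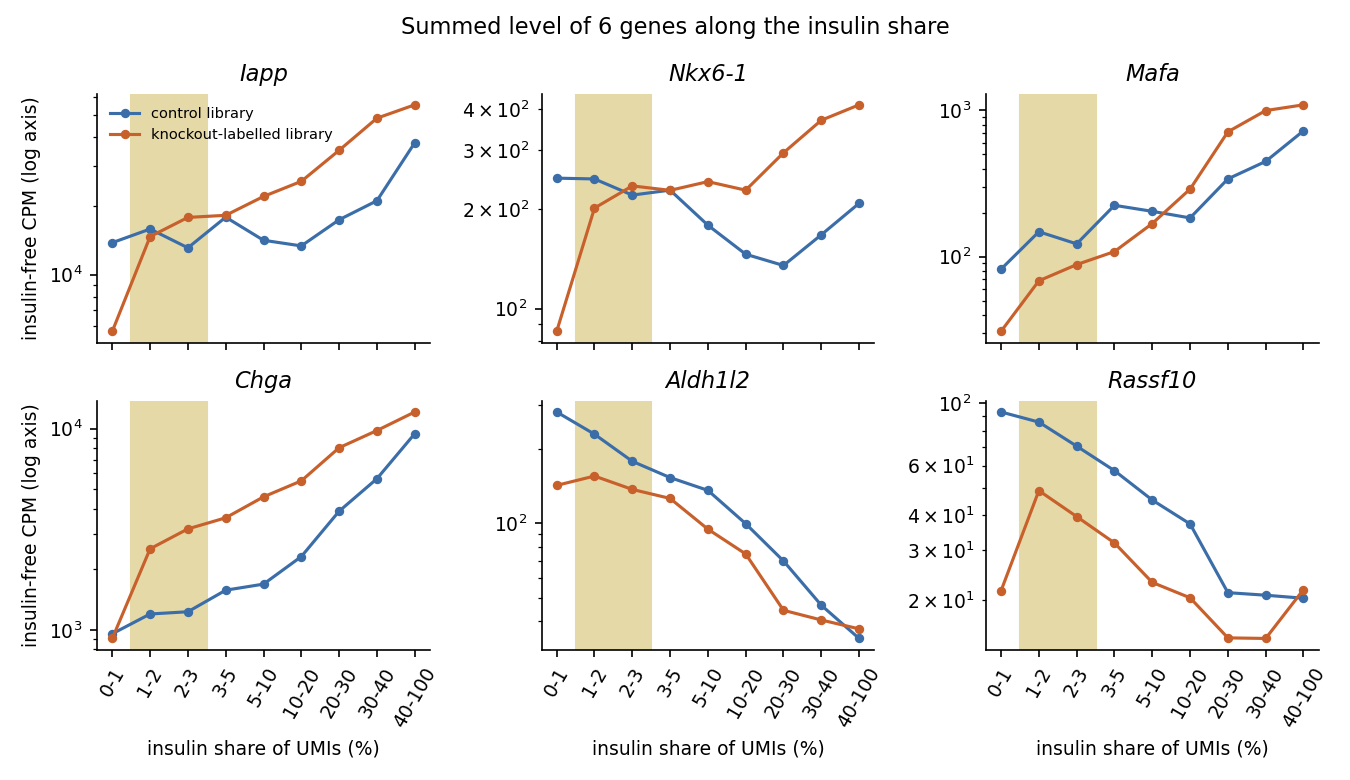
Summed level of Iapp, Nkx6-1, Mafa, Chga, Aldh1l2 and Rassf10 (y axes, insulin-free CPM, log scale) in 9 bins of insulin share (x axis, % of UMIs) in the control (blue) and knockout-labelled (orange) libraries, with the members shaded. Chga climbs and Aldh1l2 declines from the members towards cells with more insulin in both libraries, and Nkx6-1 is at 246 CPM at 1 to 2% and 135 CPM at 20 to 30% in the control library but at 201 and 295 CPM in the other.

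Between the libraries, members differed in more genes than they did from their own comparison cells. Of 8859 genes with a mean of at least 10 CPM, 341 (3.85%) were higher and 180 (2.03%) lower by at least 1.5-fold in members of the library labelled knockout. Among the largest ratios were those of Vim, Mgp, Apoe, C1qa and Lgals3, known as markers of mesenchymal cells or macrophages, with log2 values of 8.84 (6.35 to 14.15), 5.87, 5.27, 5.05 and 4.29. The 10 highest cells held 75.6% of the Vim, 99.1% of the Mgp, 94.8% of the Apoe, 83.0% of the C1qa and 97.7% of the Lgals3 UMIs of knockout-labelled members. Control members had 1 Vim UMI. Without cells over the limit on non-endocrine markers these log2 ratios were 8.05 (5.56 to 13.36), 3.31, 1.53, 3.07 and 1.07, and the counts of genes were 338 and 162.

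Chga and Chgb were higher in knockout-labelled members than in control members. Chga stood at 1210 CPM in control members and 2865 in knockout-labelled members, a log2 ratio of 1.24 (1.21 to 1.28), and at 1894 and 4834 CPM in comparison cells, a ratio of 1.35. Chgb stood at 588 and 1858 CPM, a ratio of 1.66 (1.61 to 1.71). The other granins Scg3, Scg2 and Vgf had −0.01, −0.18 and −1.02, and 7B2 (Scg5) had 0.04. Of the 22 granule genes, 3 were higher and 1 lower by at least 1.5-fold, with a median of 0.03. Over all 8859 genes, 3.85% were higher and 2.03% lower by this limit. Enpp2, the enzyme autotaxin that makes lysophosphatidic acid, stood at 76.5 and 312 CPM in members and at 64.3 and 511 CPM in comparison cells. Gpx3, a secreted glutathione peroxidase, had a ratio of 2.52 (2.33 to 2.73), and 159 of 494 control against 298 of 477 knockout-labelled members had a UMI of it. The sorting receptor Sorl1 had 1.81 and the immediate early gene Egr1 had 1.64. These ratios were 2.55 for Gpx3, 1.82 for Sorl1 and 1.64 for Egr1 without the cells over the limit on non-endocrine markers.

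Genes of antigen presentation and interferon response were higher in knockout-labelled members and in knockout-labelled comparison cells. Of 14 tested, 13 had a positive ratio and 9 passed 1.5-fold, with a median of 0.79 in members and 0.89 in comparison cells. Over all 8859 genes, 48.4% had a positive ratio and 3.85% passed 1.5-fold upwards. H2-D1, a class I heavy chain, stood at 322 and 646 CPM in members. B2m, the light chain, stood at 183 and 337 CPM, and Psmb8, an immunoproteasome subunit, at 18.1 and 43.5 CPM. Macrophage markers summed to 231 CPM in the same knockout-labelled members against 13.3 CPM in control members, and their part in these ratios was not tested.

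For beta cell genes, ratios between the libraries were nearer to 0 in members than in comparison cells. The median log2 ratio of knockout-labelled over control cells was 0.06 in members and 0.49 in comparison cells for the 18 transcription factors, 0.03 and 0.50 for the 22 granule genes, and 0.10 and 0.45 for the 22 glucose-sensing genes. Nkx6-1 had a ratio of −0.12 in members and 0.38 in comparison cells, Pdx1 0.05 and 0.53, Slc2a2 0.30 and 0.68 and Iapp 0.13 and 0.64. Mafa was lower in knockout-labelled members, at 139 and 78.7 CPM, a ratio of −0.82 (−0.99 to −0.66), and nearly level in comparison cells, at 202 and 213 CPM. Targets of ATF4 and CHOP were lower in both classes, with medians of −0.25 and −0.33. The members and comparison cells of a library share its preparation and its free RNA.

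**Figure D5:**
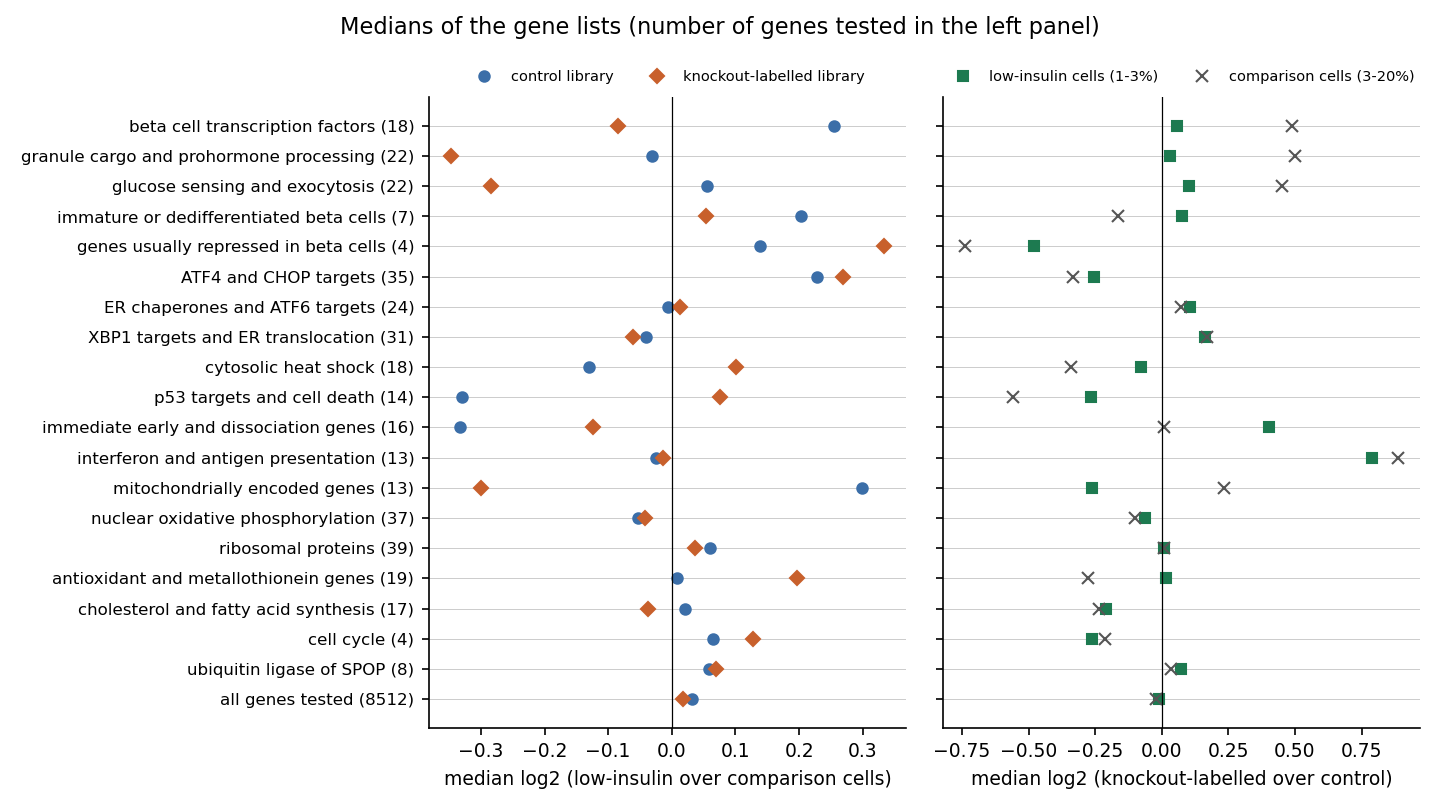
Median log2 ratio of 19 gene lists and of all genes tested (number of genes in brackets). The left panel shows members over comparison cells in the control (blue circles) and knockout-labelled (orange diamonds) libraries, with both medians of the ATF4 and CHOP targets above 0.2. The right panel shows the knockout-labelled over the control library in members (green squares) and comparison cells (crosses), with beta cell transcription factors at 0.06 and 0.49.

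Genes lower in knockout-labelled members were led by Gm42418, annotated as a long intergenic noncoding RNA, at 15934 and 6843 CPM. Robo1, an axon guidance receptor, followed at 92.5 and 34.7 CPM. Suclg2, a subunit of succinyl-CoA ligase, stood at 198 and 98.4 CPM, and Msln, mesothelin, at 46.7 and 17.8 CPM. Mt2 stood at 2602 and 1428 CPM. All 5 had a ratio of the same sign in comparison cells, from −0.86 for Suclg2 to −1.87 for Robo1. Immediate early and dissociation genes had a median of 0.40 in members and 0.01 in comparison cells. Of 16 tested in members, 7 were higher and 1 lower by at least 1.5-fold, against 3.85% and 2.03% of all genes. Jun had ratios of 0.57 in members and −0.11 in comparison cells. Junb and Fosb were higher in both classes, with 1.33 and 1.53 in members and 0.70 and 1.84 in comparison cells. Junb stood at 24.7 and 61.9 CPM in members and at 50.8 and 82.7 CPM in comparison cells.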

How the data were processed

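The deposited tables hold unnormalised UMI counts for each gene and barcode, per the file headers, which name Cell Ranger 6.0.0; the submitters' processing notes name mm10, R 4.1.1 and Seurat 4.1.0. Both tables hold 32285 features. The control table has 7768 barcodes with 82541585 UMIs and the other 10033 with 89977773. Of these, 21 barcodes occur in both tables, and no barcode was a member in both. Quality filters and the insulin gate left 2914 and 4465 cells. UMIs were summed per class and library and scaled per 1000000 UMIs without Ins1 and Ins2. Sums have exact Poisson, ratios exact conditional binomial and shares exact (Clopper-Pearson) 95% intervals, for counting error only; a count of 0 allows 3 counts. Cells are not replicates, so no p-value was computed. Hormone genes of the gate were left out of the genes tested. Calling was tested on simulated class sums drawn with counting error only, so that test does not cover spread between cells. The members and the gene lists (20 lists and 12 marker lists) were chosen with earlier results of these data known. Named genes were Spop, Spopl, Cul3, Iapp, Nkx6-1, Pdx1 and Slc2a2, the 12 highest and 12 lowest in both libraries by the weaker interval bound at 25 CPM or more, up to 4 per list, and 8 in each direction between the libraries; other genes named were chosen after their values were seen. Positions of 97 genes came from GENCODE M21 (mm10) by identifier. Alternatives covered scaling, thinning to 4000 UMIs, cell filters, the class limits, a minimum of 1 CPM and a fold limit of 2. The work used Python 3.11.15, matplotlib 3.10.9, pandas 2.3.3, scipy 1.17.1 and numpy 2.4.6.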

Additional observations from a re-analysis of the deposited data

Results flagged for a closer look

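In all, 3 genes passed 1.5-fold in opposite directions in the libraries. In 1 list, all genes tested were above 0 in the control library and below 0 in the other. Genes and lists that differed in sign without meeting these limits were not flagged. None of these differences was tested, since each library stands alone. Spp1, osteopontin, which is abundant in duct cells, had a log2 ratio of members over comparison cells of 1.01 (control) and −1.32 (knockout-labelled), and 10 of 494 control members held 67.6% of the members' Spp1 UMIs. Of the members, 2 control cells and 1 knockout-labelled cell had at least 0.5% ductal markers. Without all cells over this limit in ductal or other non-endocrine markers, a setting chosen after seeing the data, the Spp1 ratios were 0.38 and −1.32, those of Igfbp7 −0.07 and 0.13 and those of Mgp −2.08 and −1.91. Igfbp7, a secreted binding protein, had −0.67 and 0.87, with 51.5% of the knockout-labelled members' UMIs in 10 cells. Its ratios were −0.07 and 0.27 without cells carrying non-endocrine markers. Mgp, matrix Gla protein of mesenchymal and endothelial cells, had −5.29 and 1.74, and these were −2.08 and −0.82 without cells carrying non-endocrine markers. The 13 mitochondrially encoded genes were all higher in control members (median 0.30) and all lower in knockout-labelled members (median −0.30); the latter stayed below 0 under every alternative run, from −1.05 to −0.17, and the former above 0, from 0.07 to 0.42.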

How the results depend on the processing

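No paired analysis was possible because each genotype has 1 library with no replicate number, and for the same reason no replicate could be left out. The counts of genes called in both libraries (13 higher, 24 lower) moved with the setting. They were 49 and 6 with insulin in the scaling total, which keeps all 13 higher genes and 6 of the 24 lower ones. They were 34 and 44 with each cell weighted equally (by fold alone, since no interval was made), 60 and 47 after thinning, 590 and 208 against cells above 20% insulin, 56 and 80 at a minimum of 1 CPM, and 0 and 1 at a fold limit of 2. The higher genes numbered 28 for members at 1 to below 2% insulin and 29 against cells at 5 to 20%. Of the 13 higher and 24 lower genes, 9 and 14 were still called after thinning. For members at 1 to below 2% 12 and 18 were, and at 2 to below 3% 5 and 15 were. In this last setting the higher genes not called were Aldh1l2, Avil, Fabp5, Kdm1b, L1cam, Nedd9, Prdm15 and Tmx3. There, 12 of the 13 and all 24 kept their direction in both libraries. The members' share of gated cells was 10.3% and 5.62% for members at 1 to below 2%, 6.66% and 5.06% at 2 to below 3%, and 18.9% and 9.27% with at least 8000 UMIs. Among cells with a UMI of Nkx6-1, Pdx1 or Slc2a2 it was 20.5% in the control library. It was higher in the control library under each alternative run, all of them with gated cells as the denominator. Between the libraries, 1095 genes were higher and 333 lower in knockout-labelled members at a minimum of 1 CPM, 120 and 22 at a fold limit of 2, and 281 were lower after thinning and 309 with members at 2 to below 3%. Where no other cause is given, the cause was not tested. Of 66 log2 ratios of named genes past 1.5-fold, 1113 of 1122 alternative values kept the sign. Named genes were mostly picked by their ratios in the same cells, so this count is not an independent check. The values that turned were of Mgp, Apoe and Cald1. Against comparison cells in the knockout-labelled library, Mgp was −1.79 with at least 8000 UMIs, −0.82 without cells carrying non-endocrine markers, −1.91 also without those carrying ductal markers (chosen after seeing the data) and −4.67 among cells with a beta marker, Apoe was −0.15 without cells carrying non-endocrine markers, ductal ones included or not, and Cald1 was −0.11 for members at 2 to below 3% and −0.25 among cells with a beta marker. Apoe was 0.26 in the control library after thinning. Between the libraries, Mgp was −0.50 among cells with a beta marker.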
